A study of Mus musculus with 13 samples.

Results

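SMAD2/3 was already found on chromatin in LβT2 cells that had received vehicle only, and the regions it occupied there are described here. They were obtained by joining, wherever they shared at least 1 bp, the SMAD2/3 peaks of vehicle replicate 1 (605 peaks) and vehicle replicate 2 (144 peaks). This gave 614 regions, out of 8602 SMAD2/3 regions when the lists of all 4 vehicle and activin libraries were joined in the same way. Because the vehicle peaks themselves chose the regions, their vehicle SMAD2/3 values are a description and were not tested. The weakest vehicle peaks had a −log10 q of 1.78 in replicate 1 and 1.46 in replicate 2, and signal below the caller's threshold was not analysed here. The regions were then looked up in lists that took no part in the choice, namely the activin SMAD2/3 lists and the FLAG-FOXL2 and H3K27ac lists of both treatments.

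LβT2 is an immortalised mouse line with the features of pituitary gonadotropes, the cells that secrete luteinising hormone and follicle-stimulating hormone. Every group, vehicle and activin alike, was the same stably transduced LβT2-FLAG-mFoxL2 line, which carried constitutive GFP and a doxycycline-inducible FLAG-tagged mouse FOXL2 and had been exposed to doxycycline for 48 h. After 2 h in medium with 2% serum, activin A (1 nM) or its vehicle was left on the cells for 1 h. There were 2 samples of each treatment for each antibody, and a sample combined 3 plates of that line. The FLAG antibody read the tagged, induced FOXL2 and not the cells' own protein. The title of the study names the Fshb gene and its enhancers as the subject. A Protein A control sample was not analysed here, and the values have no control beside them.

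Activin binds a receptor pair whose kinase activity phosphorylates SMAD2 and SMAD3, which then gather in the nucleus with SMAD4 and bind DNA next to other factors. In gonadotropes the pathway is best known for raising transcription of Fshb, the gene of the follicle-stimulating hormone β subunit. FOXL2 is a forkhead factor of gonadotropes and ovary with which SMAD proteins cooperate at Fshb, and H3K27ac is a histone mark of active promoters and enhancers.

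The lists were made library by library, and the number of reads behind each is unknown. The FOXL2 lists held 83834 to 97701 peaks and the H3K27ac lists 38995 to 41763, so a place in one list and a place in another are not the same amount of signal. For that reason each peak is given by its percentile place in its list, ordered by −log10 q with 100 the highest and called its rank, and a difference in rank is not a measured change in occupancy. No source says that the 2 samples of a treatment came from separate experiments, so the tests below measure the spread between these samples. H3K27ac covered the starts of Cga, Lhb and Gnrhr, markers of gonadotropes, in 4 of 4 libraries, and the start of Fshb in none. The starts of Prl, Pomc, Tbx19, Pou1f1, Tshb and Sox2, which mark other pituitary cells, were covered in none, and those of Nr5a1, Pitx1, Gh and Sox9 had no window in the sequence table used for this check.

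Sequence could be read for the vehicle regions whose summit, the highest point of the peak, lay in a RefSeq promoter window (GRCm38.p6; 250 bases before to 50 bases after a gene's start). There were 53 such regions, 50 of them in the promoter class of the deposited annotation. Of these windows, 32 (60.4%, 95% Wilson interval 46.9 to 72.4) held the word CGCANGCG on either strand, against 8.21% of all 32851 promoter windows and 19.1% of the 7257 windows covered by H3K27ac in all 4 libraries. CGCANGCG is the core of the site bound by NRF1, a transcription factor of many housekeeping and mitochondrial gene promoters, and it was searched for only after these sequences had been seen. The windows were rich in CpG, with a median of 23 CpG pairs each, against 21 in the acetylated promoters and 7 in all promoters. The nearest match lay a median of 12 bp from the vehicle SMAD2/3 summit, and in 29 of the 32 windows it lay within 50 bp. A match describes the letters only, and NRF1 was not measured.

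The promoters below show this word beside regions where no FLAG-FOXL2 peak was found in any library. They are the 6 with the highest mean vehicle SMAD2/3 rank, 5′ to 3′ on the strand of the gene. Each is cut to a stretch around the matches that end before the gene's start, with those matches, on either strand, in capitals. Matches that reach past the start are not shown. In Dpf2 the match nearest to the vehicle SMAD2/3 summit, 4.5 bp from it, is therefore not in the stretch shown. The stretches are chr4:139380411-139380550 (plus strand) for Ubr4, chr13:14613038-14613163 (minus strand) for Mrpl32, chr6:83914298-83914352 (plus strand) for Zfp638, chr19:5912918-5913005 (minus strand) for Dpf2, chr8:13287803-13287955 (plus strand) for Tmco3 and chr8:84147906-84148037 (plus strand) for 4930432K21Rik.
Ubr4: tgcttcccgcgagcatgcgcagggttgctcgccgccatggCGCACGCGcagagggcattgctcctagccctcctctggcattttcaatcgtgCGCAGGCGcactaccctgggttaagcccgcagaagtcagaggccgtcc
Mrpl32: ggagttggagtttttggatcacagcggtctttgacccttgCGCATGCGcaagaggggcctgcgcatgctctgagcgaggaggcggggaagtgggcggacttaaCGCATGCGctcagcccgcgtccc
Zfp638: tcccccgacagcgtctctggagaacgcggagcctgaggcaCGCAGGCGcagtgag
Dpf2: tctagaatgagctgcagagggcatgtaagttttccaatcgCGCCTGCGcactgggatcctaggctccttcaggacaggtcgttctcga
Tmco3: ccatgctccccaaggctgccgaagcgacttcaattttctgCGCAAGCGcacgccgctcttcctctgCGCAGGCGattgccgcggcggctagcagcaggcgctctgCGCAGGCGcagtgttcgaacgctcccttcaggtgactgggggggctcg
4930432K21Rik: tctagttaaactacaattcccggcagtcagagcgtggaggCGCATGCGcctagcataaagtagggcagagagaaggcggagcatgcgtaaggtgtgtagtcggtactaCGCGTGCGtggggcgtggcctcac

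Ubr4, the gene of an E3 ubiquitin ligase, and Mrpl32, the gene of a mitochondrial ribosomal protein, kept SMAD2/3 peaks in both activin libraries, at lower ranks. The SMAD2/3 ranks of Ubr4 were 98.2 and 84.7 under vehicle and 79.2 and 74.9 under activin. Those of Mrpl32 were 98.0 and 72.9 against 52.6 and 68.8. Of 132 regions with SMAD2/3 peaks in all 4 libraries, these 2 ranked lower in both activin libraries and 120 ranked higher. Zfp638, Dpf2 and 4930432K21Rik had none under activin, and Tmco3 had 1 in activin replicate 1. The word was found in 18 of 24 windows (75%, 55.1 to 88.0) of regions with no FOXL2 peak in any library and in 5 of 13 (38.5%, 17.7 to 64.5) of those with a FOXL2 peak in all 4. By fate under activin, it was found in 18 of 28 windows (64.3%, 45.8 to 79.3) of regions without an activin SMAD2/3 peak and in 7 of 15 (46.7%, 24.8 to 69.9) of those with a peak in both activin libraries. Those intervals overlap widely. All 53 regions had a peak in vehicle replicate 1, and of the 6 found in both vehicle lists 4 held the word (66.7%, 30 to 90.3). Among SMAD2/3 regions present in both activin libraries and no vehicle library, called new regions below, 2 of 19 promoter windows (10.5%, 2.94 to 31.4) held it. Those 19 windows had a median of 4 CpG pairs, against 23 in the vehicle windows, and the part of CpG content in the difference was not tested.

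**Figure D1:**
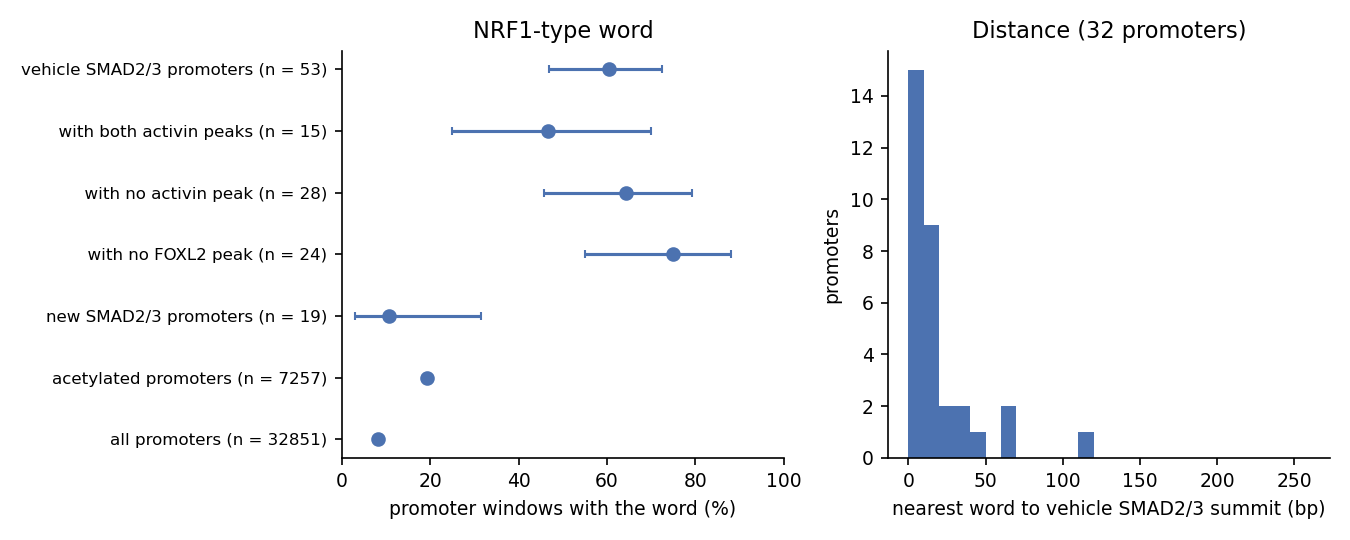
Left, percent of RefSeq promoter windows that hold the NRF1-type word on either strand, with 95% Wilson intervals, for vehicle SMAD2/3 promoters (60.4% of 53), subsets of them by activin SMAD2/3 and FOXL2 peaks, new SMAD2/3 promoters, promoters acetylated in all 4 libraries (19.1%) and all promoters (8.21%). Right, number of promoters by distance in bp from the vehicle SMAD2/3 summit to the nearest match, within 50 bp in 29 of 32.

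The words searched for SMAD proteins gave lower counts. The SMAD palindrome GTCTAGAC was in 3 of 53 windows (5.66%, 1.94 to 15.4), those of Smad6, Tnni3 and Sys1, against 0.213% of all promoters. In Smad6 it lay after the gene's start. The other 2 are shown because they are the remaining matches of the longest SMAD word, at chr7:4522626-4522713 (minus strand) for Tnni3 and chr2:164460721-164460780 (plus strand) for Sys1, with the palindrome in capitals.
Tnni3: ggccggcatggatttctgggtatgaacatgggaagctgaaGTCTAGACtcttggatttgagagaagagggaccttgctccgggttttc
Sys1: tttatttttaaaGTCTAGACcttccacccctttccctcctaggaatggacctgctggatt

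From the vehicle SMAD2/3 summit the palindrome lay 16.5 bp away in Smad6, 60.5 bp in Tnni3 and 157.5 bp in Sys1. The Sys1 stretch shown, palindrome included, lies outside the vehicle region, which is chr2:164460785-164460999. Tnni3 encodes cardiac troponin I. Its region had a FOXL2 peak in all 4 libraries and a SMAD2/3 peak in both activin libraries, while that of Sys1 had a FOXL2 peak in 3 and an activin SMAD2/3 peak in 1. The short SMAD word CAGAC was in 21 of 53 windows (39.6%) against 49.6% of all promoters, and GGCGCC in 9 (17.0%) against 11.9% (21.6% of the acetylated promoters). The forkhead word TGTTTNC was in 22.6% against 20.5%, the ETS word CCGGAA in 30.2% against 14.9% (32.8% of the acetylated promoters), and CCAAT in 32.1% against 37.4%. The words TGANTCA (AP-1), CAAGGTCA (NR5A), TAATCC (PITX) and TAATTA (LIM homeobox) were each in 1 window (1.89%), against 7.81%, 1.56%, 7.06% and 5.29%. All words were sought on both strands. Matches of GGCGCC and CGCANGCG overlapped each other in 3 places, and no other words overlapped. The remaining 561 regions had no promoter window at their summit, and no sequence of them was read. The windows included none on chromosome 18, and 50 of the 94 regions in the promoter class were read.

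Most vehicle regions were still occupied after activin. Both activin libraries had a SMAD2/3 peak at 521 of the 614 regions (84.9%, 81.8 to 87.5), 35 had a peak in 1 of them and 58 (9.45%, 7.38 to 12) in neither. Vehicle replicate 1 supplied nearly all regions, 605 against 144 for replicate 2, and 135 were in both. Among those 135 the share found in both activin libraries was 97.8% (93.7 to 99.2). Of the 58 regions without an activin peak, 55 had been found in vehicle replicate 1 alone, 1 in replicate 2 alone and 2 in both. The group without activin peaks thus rests on vehicle replicate 1.

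Many of the regions that stayed lay near the top of the activin lists. The 10 peaks of highest −log10 q were all at vehicle regions in both activin libraries. So were 90 of the first 100 peaks in activin replicate 1 and 87 in replicate 2. With each list split into 10 equal parts by −log10 q, 44.9% and 52.4% of the peaks of part 1 fell on vehicle regions, 10.7% and 13.2% of part 2, and 0.513% and 2.01% of part 10. Over the whole lists the shares were 6.95% and 8.94%. Among vehicle regions with a peak in the list, the median activin rank was 94.4 in replicate 1 (542 regions) and 92.4 in replicate 2 (535 regions). At promoter regions these medians were 65.7 (41 regions) and 63.4 (46 regions), and at the other regions 94.7 and 92.9.

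**Figure D2:**
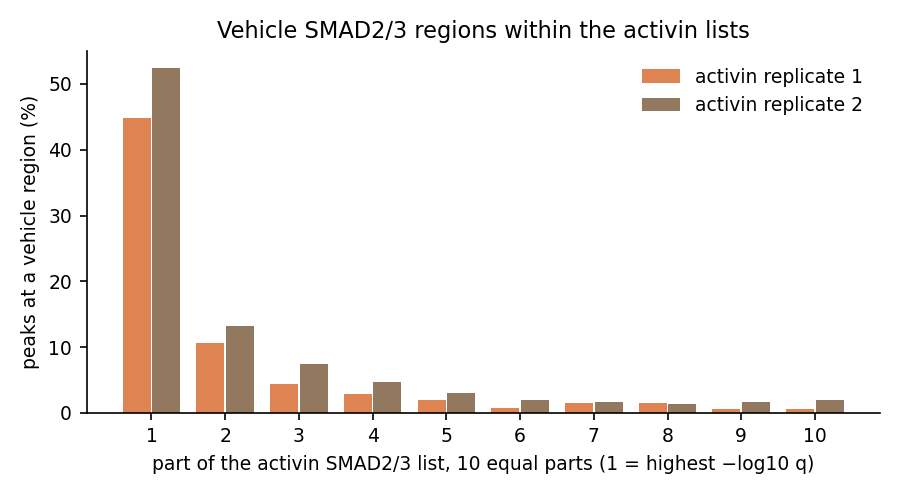
Percent of activin SMAD2/3 peaks (y axis) that lie at a vehicle SMAD2/3 region, in 10 equal parts of each activin list from the highest to the lowest −log10 q (x axis), with a bar for each activin replicate. Part 1 reaches 44.9% and 52.4%, and from part 5 on the shares are 3.02% or lower.

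The order of the regions was also partly kept. Spearman's rho between the rank in vehicle replicate 1 and the rank in the activin lists was 0.589 over 534 regions and 0.579 over 527, and it was 0.678 between the 2 vehicle lists over 135 regions and 0.937 between the 2 activin lists over 521. These are descriptions over regions, which share their library and its depth. With vehicle replicate 1 split by rank into 4 equal parts, 95.4% of regions in the highest part had both activin peaks (144 regions), against 75.7% in the lowest (115 regions). The summits lay close together. The vehicle replicate 1 summit lay a median of 24 bp from that in activin replicate 1 and 21 bp from that in activin replicate 2, and the 2 activin summits lay a median of 18 bp apart. Peaks were wider under activin. At regions in both activin lists the median width was 210 and 200.5 bp in the vehicle lists and 433 and 383 bp in the activin lists, whose own medians were 238 and 233 bp.

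The region that came highest over both vehicle lists lay 67.5 kb before the start of Fshb, at chr2:107126969-107127308 in intergenic sequence. It held place 2 in vehicle replicate 1 and place 1 in vehicle replicate 2, and places 3 and 1 in the activin lists. The authors' fold enrichment there was 12.6 and 10.3 under vehicle and 18.8 and 24.4 under activin. Its FOXL2 rank was 96.9 and 97.6 under vehicle and 99.6 and 99.7 under activin, and its H3K27ac rank was 78.6 and 73.8 under vehicle and 94.5 and 97.0 under activin. For both antibodies the activin values lay above the vehicle values. A second vehicle region stood closer to Fshb, 59.3 kb before the start, at chr2:107118733-107119137. It held places 32 and 34 in the vehicle lists and 15 and 12 in the activin lists. FOXL2 ranks at it were 75.9 and 82.7 under vehicle and 95.7 and 97.7 under activin, and H3K27ac ranks were 83.5 and 85.3 against 94.5 and 89.5. These 2 were the only vehicle regions within 100 kb of the Fshb start.

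Place 1 of vehicle replicate 1 fell in an intron of Nek6, the gene of a mitotic kinase, at chr2:38556982-38557406. It was second in vehicle replicate 2 and held places 1 and 3 under activin, with H3K27ac ranks of 80.1 and 73.5 under vehicle and 97.9 and 97.8 under activin. An intron of Supt3, which encodes a subunit of a histone acetyltransferase complex, held place 4 in both vehicle lists (chr17:45030737-45031064). Its FOXL2 ranks were 90.7 and 88.8 under vehicle and 96.5 and 98.1 under activin. The nearest FOXL2 summit lay 360 and 388 bp from the SMAD2/3 summit in the vehicle libraries and 28 and 22 bp from it in the activin libraries. In the other 9 of the 10 highest regions the nearest FOXL2 summit lay within 100 bp in every library.

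The rest of the 10 were introns of 1600002D24Rik, of Cntn5 (a neuronal adhesion molecule), of 2610203C20Rik and of Kcnma1 (a calcium-activated potassium channel), a promoter of a Serpine2 transcript (a serine protease inhibitor), and intergenic regions 52.3 kb before Tusc1 and 12.3 kb after the start of Gm17332. All 10 had FOXL2 peaks in 4 of 4 libraries, with ranks of 88.8 or higher. H3K27ac peaks were found in 4 of 4 libraries at 9 of them, and at each of these 9 both activin ranks were above both vehicle ranks. The same held at 206 of the 357 vehicle regions with H3K27ac in 4 libraries (57.7%) and at 26.4% of all 24356 joined H3K27ac regions in 4 libraries. The Kcnma1 region had no H3K27ac peak in any library.

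**Figure D3:**
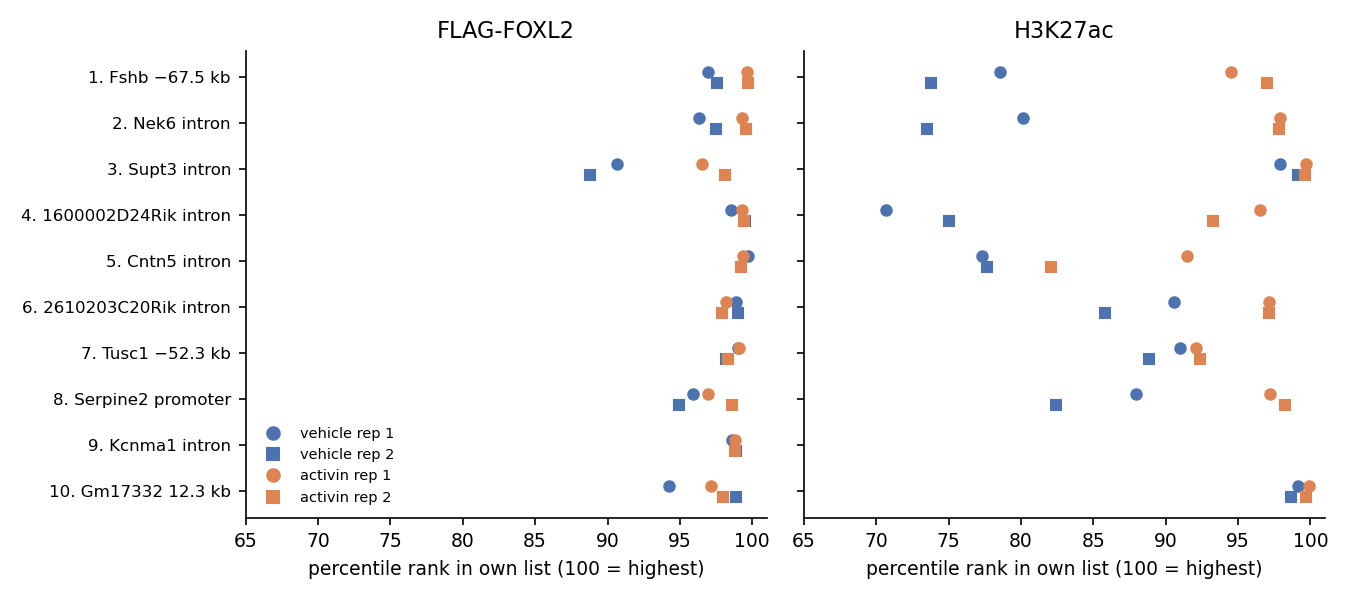
Percentile rank (x axis, 100 highest) of FLAG-FOXL2 and H3K27ac peaks at the 10 vehicle SMAD2/3 regions of highest mean vehicle rank (y axis), with a point for each vehicle (blue) and activin (orange) replicate. Activin points lie right of the vehicle points in the H3K27ac panel at the 9 regions with peaks, and the Kcnma1 region has none. Over all joined H3K27ac regions in 4 libraries, 26.4% ranked higher in both activin libraries.

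By the deposited annotation, 251 vehicle regions lay in introns, 245 between genes, 94 at promoters, 16 at transcript ends and 8 in exons. The promoter regions and the 520 others stood apart in the lists that had not been used to choose them. Activin SMAD2/3 peaks were found at 43.6% and 48.9% of promoter regions and at 96.3% and 94.0% of the others. FOXL2 peaks were found at 39.4% and 57.4% of promoter regions under vehicle and at 41.5% and 51.1% under activin, against 93.5%, 94.4%, 92.7% and 93.3% of the others. H3K27ac ran the other way, at 80.9% and 87.2% of promoter regions under vehicle and at 87.2% and 83.0% under activin, against 69.0%, 65.8%, 75% and 68.5% of the others. The Wilson intervals of the 2 classes did not overlap for SMAD2/3 under activin or for FOXL2 in any of these libraries. For H3K27ac they overlapped in vehicle replicate 1 only. The intervals cover counting error, and regions are not replicates, so no test was made between the classes.

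**Figure D4:**
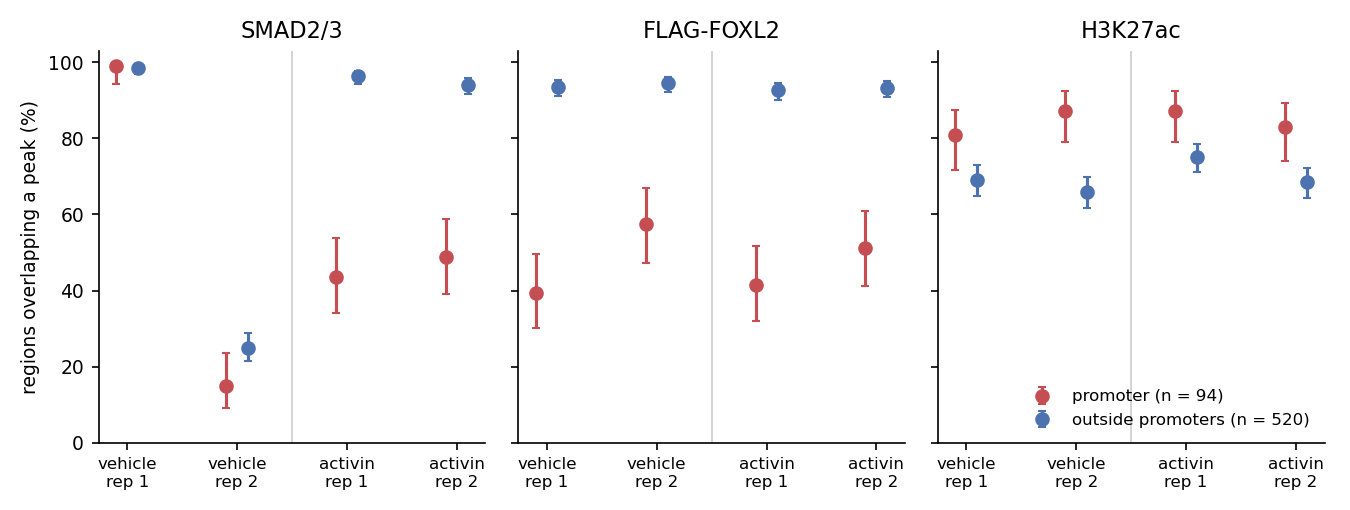
Percent of vehicle SMAD2/3 regions that overlap a peak by at least 1 bp (y axis) in each library (x axis), for 94 promoter regions (red) and 520 others (blue), with 95% Wilson intervals for counting error. The vehicle SMAD2/3 columns are fixed by the choice of regions, and promoter regions lie far below the others for activin SMAD2/3 and for FOXL2.

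Of the 58 regions without an activin SMAD2/3 peak, 42 were promoters. Their vehicle peaks lay mostly in the lower part of the list: in vehicle replicate 1 the median rank of the 41 regions found there was 37.0 (1.49 to 82.1), and 30 of them fell in the lower 2 of its 4 equal parts. The median −log10 q was 6.92 (1.85 to 16.0), against 8.66 over all 605 peaks. Only 2 of the 42 had a peak in vehicle replicate 2. FOXL2 peaks were found at 19.0% and 42.9% of them under vehicle and at 21.4% and 31.0% under activin, and the nearest FOXL2 summit lay a median of 6930 and 1736 bp away under vehicle and 6942.5 and 4275 bp away under activin. H3K27ac was found at 81% and 85.7% under vehicle and at 85.7% and 81% under activin. The highest of these by vehicle rank was the promoter of Slx4, the scaffold of DNA repair nucleases, at rank 82.1 in vehicle replicate 1, followed by the promoters of Zfp638 (81.8) and Fam98a (80.2).

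After them came an intron of Sdcbp2 (76.7) and the promoters of Tmx3 (75.7), Dpf2 (72.8, a chromatin remodelling subunit) and 4930432K21Rik (70.6). An exon of Riok2 (69.8, a kinase of ribosome assembly) and the promoters of Dctn5 (63.5, a dynactin subunit) and Hist1h4k (62.7, a replication-dependent histone H4 gene) completed the first 10. None of the 10 had a peak in vehicle replicate 2. FOXL2 peaks were absent from all 4 libraries at 8 of them, and the others were Riok2, with ranks of 1.8 in vehicle replicate 2 and 40.3 in activin replicate 2, and Hist1h4k, with 10.8 in activin replicate 2. H3K27ac covered 7 of them in all 4 libraries, Hist1h4k in 3, and the Fam98a and 4930432K21Rik promoters in none.

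FOXL2 was present at most vehicle regions before and after activin. The share of the 614 regions with a FOXL2 peak was 85.2% and 88.8% under vehicle and 84.9% and 86.8% under activin. The groups overlapped, and the means of 87.0% ± 2.53 and 85.8% ± 1.38 (SD, n = 2 each) differed by -1.14 percentage points (exact two-sided permutation test over the 4 libraries, p = 0.667). With 6 possible labellings this test cannot go under 0.333. With the FOXL2 lists shortened to equal length the difference was -3.18 points and the groups did not overlap (exact permutation p = 0.333). Outside promoters the FOXL2 summit lay a median of 31 and 37.5 bp from the vehicle SMAD2/3 summit in the vehicle libraries and 34 and 33 bp in the activin libraries. FOXL2 peaks appeared in both activin libraries and neither vehicle library at 6 regions, and the opposite was found at 9. Counted over joined FOXL2 regions, the first pattern was found at 5 of 560 (0.893%, 0.382 to 2.07) and the second at 9 (1.61%, 0.848 to 3.03), against 8.95% and 3.22% of all 124781. The Rabgef1 intron region (chr5:130196292-130196483) and the Ssh2 intron region (chr11:77272594-77272798) were among the 6. They were chosen after their values were seen, as 2 of the 3 regions of the 6 that also had H3K27ac peaks in both activin libraries and neither vehicle library.

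At the 497 regions with a FOXL2 peak in all 4 libraries, the median rank was 87.4 and 88.6 under vehicle and 90.5 and 91.1 under activin. Both activin medians were above both vehicle medians, by 2.77 points on average (exact permutation p = 0.333, the smallest possible). The activin FOXL2 lists were longer (97701 and 94006 peaks) than the vehicle lists (86401 and 83834), and with the 4 lists shortened to equal length by −log10 q the difference was 1.72 points (exact permutation p = 0.333). Counted over joined FOXL2 regions, 202 of 499 at vehicle SMAD2/3 regions (40.5%, 36.3 to 44.8) ranked higher in each activin library than in either vehicle library, where 29.9% of all 58444 FOXL2 regions in 4 libraries did so. Lower ranks in both activin libraries were found at 143 (28.7%), against 28.1% of all. When peaks were ranked by the authors' fold enrichment in place of −log10 q, the higher share was 32.5% against 27.7% of all, so the distance from the background was smaller. Over regions counted one by one, higher ranks were found at 76 of 136 (55.9%) in the highest of the 4 parts of vehicle replicate 1 and at 34 of 111 (30.6%) in the lowest.

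The region with the largest difference in FOXL2 rank lay between genes at chr8:5778284-5779022, with ranks of 10.7 and 14.5 under vehicle and 79.3 and 71.3 under activin. Its activin SMAD2/3 ranks were 96.4 and 98.4. The next lay 24.8 kb before Kdm3a, the gene of a histone H3 lysine demethylase (chr6:71657302-71657599), with FOXL2 ranks of 30.6 and 34.2 against 91.0 and 88.7. An Atp2c2 intron followed (chr8:119753965-119754123) with 5.6 and 25.9 against 65.3 and 72.3. In each of these the vehicle and activin ranks were far apart. Other regions among the first 10 lay in introns of Gm12610, Xylt1 and Nsmce2, at the end of 1700095J07Rik, 39.0 kb after the start of Sparc (a secreted matrix protein), 47.2 kb before Lonrf1 and 129.1 kb after the start of Gm25292. The largest differences in the other direction were at an intron of Unc5d, the gene of a netrin receptor, with FOXL2 ranks of 61.7 and 62.1 under vehicle and 29.7 and 19.9 under activin, and at 4 intergenic regions. The Unc5d region had no activin SMAD2/3 peak, and the other 4 had SMAD2/3 ranks of 81.7 or lower under activin.

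H3K27ac was present at 70.8% and 69.1% of the 614 regions under vehicle and at 76.9% and 70.7% under activin, means of 70.0% ± 1.27 and 73.8% ± 4.38 (SD, n = 2 each). The difference of 3.83 points was smaller than the spread of the activin replicates, whose values straddled the higher vehicle value (exact permutation p = 0.667). This value depended on the libraries. It was 12.96 points with no overlap at the 135 regions in both vehicle lists and 9.03 points without vehicle SMAD2/3 replicate 1 (exact permutation p = 0.333 for both). It was 0.73 points without activin H3K27ac replicate 1 and 6.92 points without activin H3K27ac replicate 2. At the 357 regions with an H3K27ac peak in all 4 libraries, the median rank was 90.6 and 89.1 under vehicle and 95.6 and 94.6 under activin, a difference of 5.29 points with no overlap of the groups (exact permutation p = 0.333, the smallest possible). Of 488 joined H3K27ac regions at vehicle SMAD2/3 regions, 284 (58.2%, 53.8 to 62.5) ranked higher in both activin libraries, against 26.4% of all 24356 regions. Lower ranks were found at 98 (20.1%, 16.8 to 23.9), against 31.2% of all.

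Higher H3K27ac ranks were found mostly outside promoters. Counted one by one, 188 of 284 (66.2%) of them ranked higher in both activin libraries and 48 (16.9%) lower, while of 73 promoter regions 18 (24.7%) ranked higher and 18 lower. Over all joined H3K27ac regions 26.4% ranked higher and 31.2% lower, so the promoter share was near that of all. Those shares over all regions were not split by class or by SMAD2/3 peak. The median change was 3.69 points outside promoters and -0.40 at promoters. Promoters that kept SMAD2/3 in both activin libraries ranked higher at 14 of 28, and promoters without an activin peak at 2 of 32. By vehicle SMAD2/3 rank, 79 of 104 (76.0%) ranked higher in the highest of the 4 parts of vehicle replicate 1 and 42 of 89 (47.2%) in the lowest. Whether these groups differ was not tested, since regions are not replicates.

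**Figure D5:**
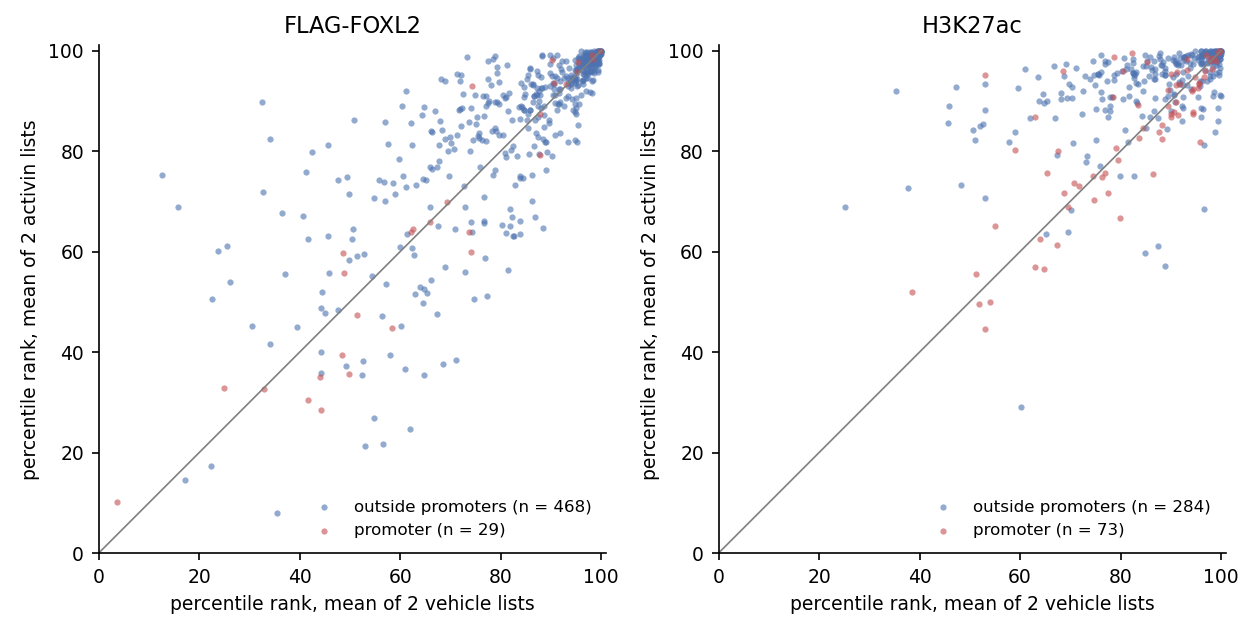
Mean percentile rank in the 2 activin lists (y axis) against that in the 2 vehicle lists (x axis) for vehicle SMAD2/3 regions with a peak in all 4 libraries, FLAG-FOXL2 on the left (497 regions) and H3K27ac on the right (357), promoters in red and others in blue. The line marks equal ranks, with 291 FOXL2 and 244 H3K27ac points above it. The share of all FOXL2 or H3K27ac regions above such a line was not counted, so these counts have no background beside them. In the H3K27ac panel 58 of the 73 promoter points lie within 10 rank points of the line, while the Pomt1 promoter lies far above.

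The largest difference in H3K27ac rank was 3.4 kb before Tjap1, the gene of a tight junction protein (chr17:46286365-46286562), with ranks of 45.1 and 25.5 under vehicle and 92.4 and 91.4 under activin. FOXL2 was already high there, with ranks of 93.9 and 97.0 under vehicle and 98.2 and 98.8 under activin. A promoter region of Pomt1, which encodes a protein O-mannosyltransferase (chr2:32246951-32247278), had H3K27ac ranks of 56.0 and 50.1 under vehicle and 96.6 and 93.6 under activin, again beside high FOXL2 ranks of 97.7 and 98.5 under vehicle. An Evc2 intron (chr5:37391772-37392034, a gene of primary cilia) had 62.3 and 59.8 against 97.0 and 95.6. Others among the first 10 lay in introns of Gm27174, Gm12610, Gm16677, 4931422A03Rik, Nsmce2 and Gm15411. The Gm12610 and Nsmce2 regions were also among the 10 largest differences in FOXL2 rank.

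The Gm12610 region (chr4:89461977-89462203) had H3K27ac ranks of 28.6 and 21.6 under vehicle and 75.5 and 62.0 under activin, and FOXL2 ranks of 25.7 and 42.4 against 85.9 and 78.7. In the other direction, H3K27ac ranks were lower under activin at an intron of Negr1, with 89.3 and 88.4 against 57.5 and 56.6. The next 4 were an intergenic region 11.7 kb before Gm12859, introns of Dlgap1 (a postsynaptic scaffold protein) and Khdrbs2 and an intergenic region 47.9 kb from n-R5s94. None of these 5 had an activin SMAD2/3 rank above 62.8. H3K27ac peaks were found in both activin libraries and neither vehicle library at 31 regions, 30 of them outside promoters and with SMAD2/3 in both activin lists. The opposite pattern was found at 19. H3K27ac peaks are broad and join with their neighbours, and over joined regions the first pattern was found at 8 of 510 (1.57%, 0.797 to 3.06) and the second at 3 (0.588%, 0.2 to 1.72), against 5.84% and 6.79% of all 53008.

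A pair of regions in introns of Fkbp5, the gene of a co-chaperone of steroid receptors, stood among the 31 and were named after their values were seen. They lay at chr17:28431926-28432219 and chr17:28438282-28438453, under one acetylated peak in each activin library, with H3K27ac ranks of 93.6 and 92.1. SMAD2/3 ranks under activin were 98.4 and 98.3 at the first and 97.8 and 98.1 at the second. FOXL2 ranks under activin were 95.3 and 95, and 93.4 and 95.4.

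Of the 149 genes on 8 lists for the pathway and the cell type, 121 were named for some peak in the deposited annotation, and only these could be counted. A vehicle region was nearest to 7 of the 121 (5.79%), against 559 of all 28467 annotated genes (1.96%). Of 12 feedback inhibitors of SMAD signalling, 1 was nearest to a vehicle region, against 3 nearest to any of the 5162 regions present in both activin libraries. The 24 ligand, receptor and SMAD genes had 2 against 6, the 19 gonadotrope genes 2 against 10, and the 12 forkhead genes 1 against 3. The 8 genes of other pituitary lineages had 1 against 1. The 13 classic SMAD targets had 0 against 0, the 23 AP-1 and immediate early genes 0 against 3, and the 10 secretory granule genes 0 against 2. Over all annotated genes the second number was 3460.

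Cga encodes the α subunit shared by the gonadotropins, and its promoter (chr4:34893299-34893711) held a SMAD2/3 peak in every library, with ranks of 86.1 and 69.4 under vehicle and 96.1 and 91.1 under activin. FOXL2 ranks were 99.5 or higher in all 4 libraries. H3K27ac overlapped the region in 3 of 4 libraries, with ranks of 99.8 in vehicle replicate 2 and 99.3 and 99.5 under activin. The other gonadotrope gene was Pitx1, a homeodomain factor, with a region 94.6 kb before its start (chr13:55930676-55930848) near the bottom of vehicle replicate 1, at rank 4.1, and at 83.5 and 61.9 under activin.

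Among feedback inhibitors, Smad6 had a region at its start (chr9:64021947-64022104) with a SMAD2/3 rank of 59.8 in vehicle replicate 1 and 77.5 and 80.9 under activin. FOXL2 ranks there were 50.4 and 49.1 under vehicle and 29.7 and 41.6 under activin, and H3K27ac ranks were 62.0 and 55.8 against 78.9 and 81.5. For FOXL2 both activin values lay below the vehicle values, and for H3K27ac above. A promoter of Smad7, the other inhibitory SMAD gene, held SMAD2/3 ranks of 86.0 and 45.1 under vehicle and 95.4 and 96.9 under activin, although the nearest annotated start was that of Gm20544. Its H3K27ac ranks were 99.2 or higher in all 4 libraries.

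Of ligand genes, Inhbb, which encodes the βB subunit of activin B and inhibin B, had a region 32.3 kb after its start (chr1:119389859-119390042). Its SMAD2/3 rank was 30.9 in vehicle replicate 1 and 98.6 in both activin lists. FOXL2 was found in activin replicate 2 only, at rank 12.4. H3K27ac ranks were 75.7 in vehicle replicate 1 and 96.3 and 95.7 under activin. Gdf9, the gene of a growth factor of the oocyte, had a region labelled as promoter 0.9 kb after the nearest start (chr11:53431766-53432111), with SMAD2/3 ranks of 73.4 in vehicle replicate 1 and 98.3 and 96.5 under activin.

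Of the remaining lists, Ghrhr, the receptor gene of growth hormone-releasing hormone, had a region at its transcript end (chr6:55388791-55389125) with SMAD2/3 ranks of 86.4 and 30.6 under vehicle and 98.8 and 98.1 under activin. Its FOXL2 ranks were 74.0 and 78.9 under vehicle and 88.9 and 92.9 under activin, and its H3K27ac ranks were 71.8 and 64.5 against 92.0 and 91.1. Foxk1, a forkhead gene, had a region 34.1 kb before its start (chr5:142367290-142367543) with SMAD2/3 ranks of 92.6 and 23.3 under vehicle and 62.3 and 87.3 under activin. An intron of Esr2, the gene of estrogen receptor β, held a region (chr12:76132596-76132753) with FOXL2 ranks of 95.2 or higher and no H3K27ac peak in any library.

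Set beside the 4642 new regions, vehicle regions lay more often at promoters, 15.3% (12.7 to 18.4) against 3.64% (3.14 to 4.22), a difference of 11.7 percentage points (95% interval 8.97 to 14.8). Among the 135 regions in both vehicle lists the difference was 5.99 points (2.03 to 12.2), and without vehicle replicate 1 it was 6.08 points (2.2 to 12). The 2 sets were chosen by unlike rules, a peak in either vehicle list against a peak in both activin lists. Of the 521 vehicle regions that also had both activin peaks 35 were promoters, and of the 58 with no activin peak 42 were. Outside promoters, FOXL2 peaks in both activin libraries were found at 91.5% (88.8 to 93.6) of vehicle regions and 80.6% (79.4 to 81.7) of new regions, and FOXL2 peaks in both vehicle libraries at 93.1% (90.6 to 95) and 70.0% (68.6 to 71.3). At promoters the order was reversed, with FOXL2 in both activin libraries at 37.2% (28.1 to 47.3) of vehicle regions and 74.0% (66.9 to 80) of new regions. All new regions had both activin SMAD2/3 peaks. Among the 35 vehicle promoter regions that also had both, the FOXL2 share was 71.4% (54.9 to 83.7), near that of new regions. Among such vehicle regions outside promoters it was 93.8% (91.3 to 95.6).

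The median FOXL2 rank of new regions was 81.3 and 82.7 under vehicle and 89.4 and 89.5 under activin, and that of vehicle regions exceeded it by 6.14 and 5.86 points under vehicle and by 1.05 and 1.65 points under activin. The gap thus differed between treatments by -4.65 points with no overlap (exact permutation p = 0.333, the smallest possible). For H3K27ac the gap was 7.05 and 5.53 points under vehicle and 3.77 and 4.89 under activin, a difference of -1.96 points (exact permutation p = 0.333), which was not kept with other choices of vehicle regions. It was -0.01 points with the regions in both vehicle lists and -0.34 points without vehicle SMAD2/3 replicate 1 (exact permutation p = 1 for both). New regions were chosen on activin SMAD2/3 peaks and vehicle regions on vehicle SMAD2/3 peaks, and neither choice used the FOXL2 or H3K27ac lists.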

How the data were processed

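ChIP-seq peak lists of 12 libraries (3 antibodies, 2 treatments, 2 replicates) were analysed. Per the submitters' processing notes, Bowtie2, MACS2 and HOMER were used on GRCm38 (mm10), with no versions given. The authors deposited, per peak, a score, a linear fold enrichment (ratio), and the −log10 of p and q. The deposited score was 10 times the −log10 q, within 1 unit for every peak. SMAD2/3 and FLAG lists are narrow peaks and H3K27ac lists broad peaks, each called per library, as the deposited peak names show. How the control entered peak calling is not given in the sources used here. Genomic class, nearest start and distance come from HOMER's deposited annotation, per the file headers, where promoter is HOMER's own class.

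From these, regions were joined at 1 bp, looked up in the other lists at 1 bp, and ranked by −log10 q within each list (Python 3.11.15, numpy 2.4.6, pandas 2.3.3). Where a region met several peaks, the highest was used. Treatments were compared over the 4 libraries with exact two-sided permutation tests (6 labellings, smallest p 0.333), and shares have 95% Wilson intervals, which cover counting error only. The code was tested on simulated data. Promoter sequence came from RefSeq (GRCm38.p6).

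The named regions are the 10 of highest mean vehicle rank in both vehicle lists, the 10 largest rises and 5 largest falls in FOXL2 and in H3K27ac rank whose groups did not overlap, the 10 of highest vehicle rank without an activin peak, those nearest to a gene of 8 lists (149 genes), and those within 100 kb of Fshb. The regions and lists were chosen with earlier results of these data known. Alternatives were the vehicle threshold, ranking by fold, a 50% overlap, a −log10 q of at least 5 or equal list lengths in the lists looked up, both vehicle lists, each library left out, the replicate block and, chosen after seeing the data, leaving out promoters and the word CGCANGCG.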

Additional observations from a re-analysis of the deposited data

How the results depend on the processing

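Of 130 alternative values of the results that compare treatments or classes, 26 moved and 2 reversed. The other 102 kept their direction and, for values with no test, stayed within the error of the main value. Some of the 102 could not differ: restricting to numbered chromosomes, X and Y removed nothing, and the replicate block leaves mean differences unchanged. For tested values only direction counted, so the H3K27ac gap differences of -0.01 and -0.34 points are among the 102. For the 11 words, the difference in share between vehicle and new regions was taken again with the 6 windows in both vehicle lists. Each stayed within the wide interval of its main difference, but the palindrome and GGCGCC were in 0 of the 6. The reversals were both in the FOXL2 overlap difference, -1.14 points in the main analysis, which became 0.10 with vehicle peaks of a −log10 q of at least 5 and 0.65 without vehicle FLAG replicate 2. The median activin ranks below leave out regions with no peak in the activin list. With regions in both vehicle lists only, the share with both activin peaks was 97.8%, the median activin rank 98.5, the higher shares 52.8% (FOXL2) and 75.4% (H3K27ac), and the promoter difference 5.99 points. With the −log10 q of at least 5 in vehicle, the first 2 were 87.5% and 95. Ranking by fold gave a median activin rank of 91.3 and a FOXL2 higher share of 32.5%. Outside promoters 93.5% had both activin peaks and the H3K27ac higher share was 64.8%.

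Leaving out 1 library at a time gave 84.8% to 97.2% for both activin peaks, 92.4 to 98.3 for the median activin rank, 40.2% to 53.4% and 58.5% to 72.1% for the FOXL2 and H3K27ac higher shares, 6.08 to 11.7 points for the promoter difference and -2.93 to 0.65 points for the FOXL2 overlap difference. The share over all regions rose as well, from 29.9% to between 36.3% and 43.5% for FOXL2 and from 26.4% to between 34.3% and 38.7% for H3K27ac when 1 of their own libraries was left out. Without vehicle FLAG replicate 1 the FOXL2 share was 48.2% against 43.5% of all, and without activin FLAG replicate 2 45.6% against 39.0%, so its distance from the background was smaller. The highest shares and the lowest promoter difference came without vehicle SMAD2/3 replicate 1, which leaves 144 regions. Pairing by replicate number, as a replicate block, gave higher shares of 47.9% (FOXL2, 36.6% of all regions) and 61.5% (H3K27ac), and the exact paired permutation test cannot go under p = 0.5. Since no exact test here can pass 0.05, the tests say nothing about stability. Replicate deviations correlated at 0.21 (FOXL2) and -0.05 (H3K27ac), so the numbers are not shown to pair samples. A narrower motif window was not run, since no genome was at hand, and restricting to numbered chromosomes, X and Y removed nothing. Depth is unknown for every list. The cause of each shift was not tested.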
